A study of Rattus norvegicus with 6 samples.

Results

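The cytosolic ribosomal protein genes of rat bone marrow cells were compared between untreated cultures and cultures exposed to LIPUS. LIPUS stands for low-intensity pulsed ultrasound, a form of mechanical stimulation by brief pulses of sound. A probe belonged to the family when its accession mapped to a rat symbol that starts with Rpl or Rps and a digit, or to Rplp0, Rplp1, Rplp2 or Rpsa. The Rps6k kinases were left out. This gave 96 probes for 66 genes, of 8899 genes with a symbol on the array. The cells came from male rats aged 8 weeks, were kept under osteogenic conditions in both groups, and were collected on day 10. The control group had no ultrasound, and each group holds 3 samples, each with Cy3-labelled RNA on 1 single-colour Agilent array. Whether the replicates were separate animals or cultures is not given in the labels, so p-values measure only the spread between these samples. Bone marrow cultures of this kind are mixtures, and in such bulk RNA fewer cells of a type and less RNA per cell cannot be told apart.

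The cytosolic ribosome joins a small subunit, which reads the mRNA, to a large subunit, which links amino acids. Each subunit is ribosomal RNA clothed in proteins present once per particle, except Rplp1 and Rplp2 of the stalk. These P proteins are present in several copies and recruit the translation factors. Cells match the output of these genes largely through translation: the mRNAs begin with a 5′ terminal oligopyrimidine (TOP) tract, a C at the cap followed by a run of C and T, through which mTORC1 signalling lets them be translated or held back. An array measures how much of the mRNA is present, not how much of it is translated. Osteoblasts secrete large amounts of matrix protein, and several ribosomal protein mRNAs, among them Rplp0, Rpl13a and Rps18, are in common use as reference genes in cell culture experiments.

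The TOP tract is a sequence feature that the choice of members did not use. RefSeq start sites on the GRCr8 assembly were available for 52 of the 66 genes. At the annotated start, on the strand of the gene, 21 of the 52 (40.4%) began with C followed by at least 4 bases that were each C or T. Among all 33469 start sites in the same table, 881 did (2.63%). When the opening base could be either C or T, giving a run of at least 5, the shares were 28 genes (53.8%) and 4.75% of all entries. The starts of 8 genes whose values are described below are shown from 10 bases before to 20 bases from the annotated start, 5′ to 3′. They are examples and not a sample of the family, since such a run is more common among them than among the 52. Others described below, such as Rpl38, Rpl13a, Rpl11 and Rps19, have no run of at least 5 at the annotated start. Capitals mark the unbroken run of C and T that opens the transcript.
Rplp0 (chr12:46718371-46718400, minus strand): caccgcacttCTCTCgccaggcgtcctcat
Rplp1 (chr8:71290853-71290882, minus strand): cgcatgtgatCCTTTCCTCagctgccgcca
Rpl10 (chrX:157205840-157205869, plus strand): gtgggagcgtCTCTTTTCCTCTggcgcggt
Rpl35a (chr11:81235002-81235031, minus strand): tcttgccttcCTCTTTCCgccatcttggcg
Rpl31 (chr9:49143101-49143130, plus strand): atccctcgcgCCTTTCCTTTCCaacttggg
Rps26 (chr7:1643385-1643414, minus strand): ccgccgggtcCTCTTTCgagtcttggctcc
Rps10 (chr20:5700725-5700754, minus strand): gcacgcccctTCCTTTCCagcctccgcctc
Rps6 (chr5:106420521-106420550, minus strand): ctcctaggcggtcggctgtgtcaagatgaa

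The tract of Rps10 opens with T at the annotated start, and that of Rps6 is not in the window as annotated. A start placed a few bases off moves a gene out of the count, so the share counts annotated starts and not TOP mRNAs. The difference between the groups was also summarised by the kind of start. The median LIPUS minus control difference was −0.029 (log2) over 19 probes of genes with it and −0.0099 over 42 probes of the other genes with an entry.

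All values below are log2 brightness with the 75th percentile of each array set to 0, and differences are LIPUS minus control. Over the 6 arrays, 53.5% to 61.9% of probes were above background, and 23260 were kept for testing. The angle of the spot grid on each scan, from which the slide was inferred, put control 1 and control 2 on slide 1, and control 3 with all 3 LIPUS arrays on slide 2. All 96 ribosomal protein probes were kept, and 95 were above background on all 6 arrays. The same number, 95 of 96, read above 0 on all 6 arrays, which 21.5% of all gene probes did. The exception is the dimmer of the Rpl28 probes, which read −1.69, −2.44 and −4.77 in control and −2.79, −2.86 and −2.12 in LIPUS and was above background on 3 arrays. The marker lists were chosen with earlier results of these data known. Their values therefore describe a difference between the groups in cells or in the RNA of those cells, and do not test it. The marker calls are from the fit without slide, and with slide as a fixed block no probe was called. Of the macrophage markers, 9 of 14 probes under the scanner's upper limit were called lower in LIPUS (limma, adjusted p under 0.05). These came from 7 of 12 measured genes, and 13 of the 14 probes lay below 0. The summed level (log2) of all measured macrophage probes ran from 10.3 to 10.5 in control and from 9.57 to 9.80 in LIPUS. That sum includes C1qb, which was at the limit on the 3 control arrays. Of the osteoblast markers, 4 of 7 probes under the limit were called higher, and all 7 lay above 0. The summed level of all measured osteoblast probes ran from 8.07 to 8.31 in control and from 9.91 to 10.1 in LIPUS. It includes Bglap, which was at the limit on the 3 LIPUS arrays. No erythroid or lymphoid marker was measured above background: Alas2, Hbb and Cd79b were below it, and the other 6 symbols of those lists matched no probe. The part of this shift in the ribosomal protein values was not tested.

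No ribosomal protein probe was called different. At a Benjamini-Hochberg adjusted p under 0.05 (limma), 0 of 96 probes passed in either direction, where 854 of all 23260 probes did (3.67%). Of these, 306 (1.32%) were higher and 548 (2.36%) lower in LIPUS. The split over all probes depends on the scaling: 265 of 522 calls were higher after median centring and 101 of 1815 after scaling on spike-in probes. At an unadjusted p under 0.05, 8 ribosomal protein probes passed, against 21.2% of all probes. All 8 read the scanner's upper limit on 4 or more arrays, so their values say little about the mRNA. Of the 72 probes that stayed under the limit on every array, 0 passed the unadjusted threshold, and the lowest adjusted p was 0.269.

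The scanner limit takes part of the family out of reach. A probe was counted as at the limit on an array when its value reached 99% of the highest reading the scanner gives. That held for 24 probes of 21 genes on at least 1 array, and 17 genes had no probe under the limit. Because each array was scaled by its 75th percentile, the limit itself sits at a different height on each: 8.29, 8.59 and 8.41 in control and 8.74, 9.04 and 8.96 in LIPUS. A probe that is saturated throughout therefore reads higher in LIPUS by construction. Rps6, the small subunit protein phosphorylated by S6 kinase, shows this. It read 8.31, 8.61 and 8.42 in control and 8.75, 9.06 and 8.98 in LIPUS, a difference of 0.48 that is the difference between the limits.

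**Figure D1:**
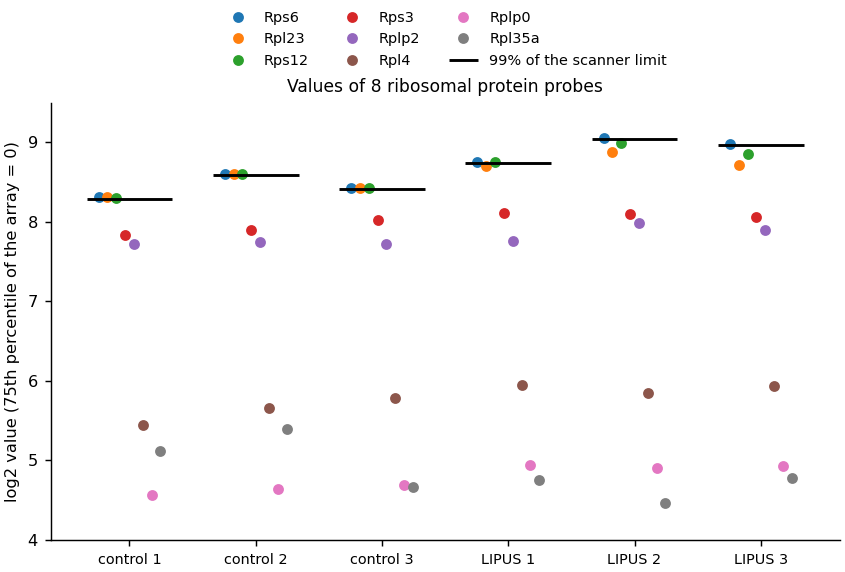
Log2 values of 8 ribosomal protein probes on each of the 6 arrays (75th percentile of the array = 0), with points set side by side within an array. Black bars mark 99% of the scanner limit of that array. Rps6 sits on the bars on all 6 arrays, Rpl23 on the 3 control arrays and Rps12 on 4 arrays, while the Rplp0 values lie apart between groups, at 4.57 to 4.69 in control and 4.91 to 4.94 in LIPUS.

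Rpl41, Rplp1, Rpl8, Rps23 and Rpl37l1 were at the limit on all 6 arrays like Rps6, and no level or fold can be given for these 6 genes. Rplp1 is one of the acidic P proteins of the stalk, Rpl8 lies near the peptidyl transferase centre, Rps23 helps form the decoding site, and Rpl41 is the smallest of the ribosomal proteins. A probe of Rps12 and a probe of Rps2 were at the limit on 4 arrays. Of the 24 probes, 16 were at the limit on control arrays only, 0 on LIPUS arrays only and 8 in both groups. For those 16 the control level is at least what was read, so the difference is at most what was read. The differences read ran from −0.21 to 0.32, with 12 above 0 and 4 below.

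Rpl23, which lies at the junction of the large and small subunits, read 8.31, 8.61 and 8.42 in control, all at the limit, and 8.70, 8.87 and 8.71 in LIPUS. Its difference is at most 0.32, and adjusted p was 0.303. Rpl35, a protein at the exit of the peptide tunnel, read 8.31, 8.60 and 8.42 against 8.71, 8.81 and 8.74, a difference of at most 0.31. Rps18, another common reference gene, read 8.30, 8.61 and 8.42 against 8.65, 8.70 and 8.60, a difference of at most 0.21. In these 3 genes the control values are lower bounds, so the sign of the difference was not measured.

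The 72 probes under the limit, from 49 genes, give the measurable picture. Their median difference was −0.025, beside −0.026 over all probes, with 28 above 0 and 44 below. The 5th to 95th percentiles ran from −0.31 to 0.22, beside −1.25 to 0.79 over all probes. The 72 probes are bright, with array medians from 6.72 to 7.06, against −0.44 to −0.40 over all probes. Among probes of any gene in the log2 unit starting at −1, these percentiles ran from −0.88 to 0.78. In the unit starting at 7 they ran from −0.57 to 0.35, ribosomal protein probes included. Comparisons with all probes in this paragraph were not matched for brightness, and its part in them was not tested. Only 1 of the 72 (1.39%) differed by more than 1.5-fold, where 25.9% of all probes did. That count rests on the scaling: 12 of the 72 (39.2% of all probes) passed 1.5-fold after spike-in scaling, which moved the median of all probes to −0.42, and 0 (28.5%) after median centring, which moved it to 0.16. Among the 69 with a mean above 2, differences ran from −0.40 to 0.30, that is from 1.32-fold lower to 1.23-fold higher. For 55 of the 72 (76.4%) the 95% interval of the difference lay wholly within 1.5-fold either way, beside 16.4% of all probes. This count came to 30 with no filter on dim probes (3.48% of all probes), 15 after median centring (4.85% of all probes), 2 after spike-in scaling (4.49%), 18 in the spot tables (30.3%), 32 with slide as a fixed block (6.89%) and 12 on slide 2 alone (3.28%), and to between 29 (without LIPUS 3) and 48 (without control 2) when 1 array was left out. The pooled SD between replicates had a median of 0.14 over these probes and of 0.29 over all probes. The smallest difference called over all probes was 0.74 (1.68-fold). The other 17 probes have intervals that leave a change of more than 1.5-fold possible.

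**Figure D2:**
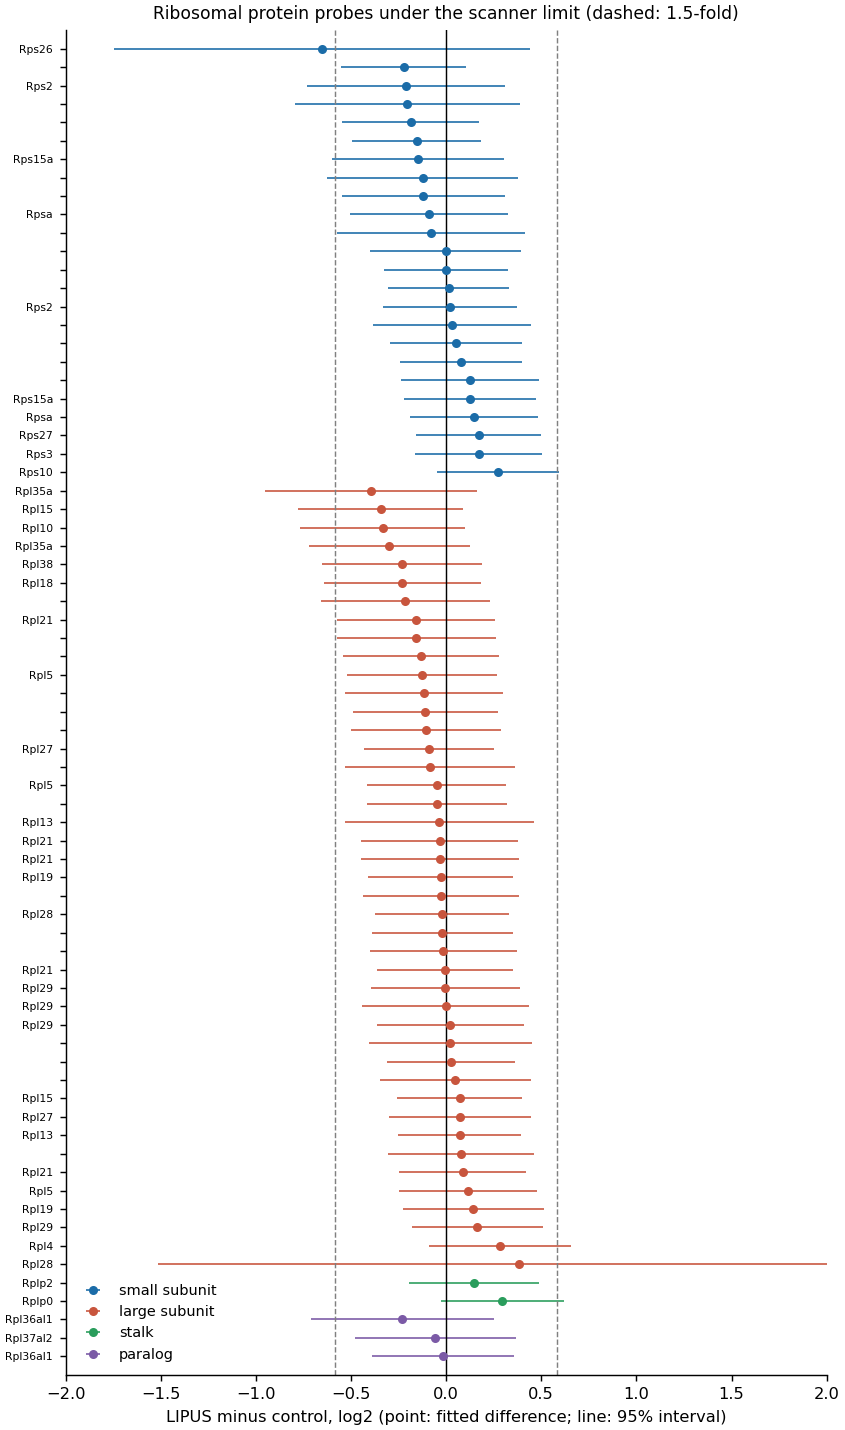
LIPUS minus control difference (log2) with its 95% interval for each of the 72 ribosomal protein probes under the scanner limit, ordered within small subunit, large subunit, stalk and paralog genes, with names for those chosen by the naming rule. Dashed lines mark 1.5-fold, and the Rpl28 interval is cut at the right edge; of the points Rps26 alone lies outside the dashed lines, and every interval crosses 0.

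The values of the groups did not overlap for 11 of the 72 probes (15.3%), 9 with LIPUS higher and 2 with LIPUS lower. Over all probes that share was 28.6%, with 14.2% higher and 14.5% lower. The 9 were probes of Rplp0, Rplp2, Rps3, Rps27, Rpl4, Rpl29, Rpsa and both Rps10 probes, and the 2 include a probe of Rps20. None of these differences passed the test.

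The stalk proteins were measured by 1 probe each. Rplp0, the base of the stalk that anchors the other P proteins, read 4.57, 4.64 and 4.69 in control and 4.94, 4.91 and 4.93 in LIPUS. Every LIPUS value lay above every control value. The difference was 0.30 ± 0.13 (SE), with a 95% interval from −0.026 to 0.62 and an adjusted p of 0.269, the lowest of the probes under the limit. Within slide 2, against control 3 alone, it was 0.24. Rplp2, a partner of Rplp1 in the stalk dimers, read 7.73, 7.75 and 7.72 against 7.76, 7.98 and 7.89. Its LIPUS values lay just above the control values, with LIPUS 1 barely above control 2. The difference was 0.14, with an adjusted p of 0.599.

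The small subunit was represented by 27 genes and 36 probes, 24 of them under the limit. Their median difference was −0.0014, with 12 above 0 and 12 below. Rps10, a protein of the head of the subunit that is ubiquitinated at collided ribosomes, read 4.62, 4.56 and 4.54 in control and 4.90, 4.83 and 4.82 in LIPUS. The groups lay apart, with a difference of 0.27 ± 0.13 (SE) and an adjusted p of 0.301. The other Rps10 probe read 6.08, 6.07 and 6.12 against 6.21, 6.15 and 6.14, a difference of 0.078 in the same direction. Rps3, which lines the channel where mRNA enters, read 7.83, 7.89 and 8.02 against 8.11, 8.09 and 8.06, a difference of 0.17 (adjusted p = 0.517). Rps27 also differed by 0.17, from 6.42, 6.52 and 6.54 to 6.64, 6.63 and 6.72.

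On the other side of 0, Rps26, which lies beside the mRNA exit and is among the genes mutated in Diamond-Blackfan anaemia, had the most negative difference. It read 2.57, 1.01 and 1.44 in control and 0.99, 1.5 and 0.58 in LIPUS, so that control 1 alone lay apart and the groups overlapped. The difference of −0.65 (1.57-fold lower) had a 95% interval from −1.75 to 0.44 and an adjusted p of 0.453. Rps20 read 7.40, 7.59 and 7.48 against 7.39, 7.34 and 7.27 and differed by −0.16 ± 0.14 (SE), without overlap (adjusted p = 0.567).

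Several small subunit genes known from human disease or signalling sat near 0. Rps14, whose loss drives the anaemia of the 5q minus syndrome, read 7.41, 7.56 and 7.47 in control and 7.50, 7.47 and 7.46 in LIPUS, a difference of 0.0007 with a 95% interval from −0.33 to 0.33. Rps19, the gene most often mutated in Diamond-Blackfan anaemia, differed by 0.032. Rps27a, which is made as a fusion with ubiquitin, read 7.83, 7.82 and 7.24 against 7.52, 7.61 and 7.52. Control 3 was the lowest of the Rps27a values and the other controls the highest, a pattern that recurs below. Rpsa, also known as the laminin receptor precursor, had 2 probes with opposite signs, at −0.091 and 0.15.

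The large subunit, apart from the stalk, held 33 genes and 53 probes, 43 of them under the limit. Their median difference was −0.029, with 14 above 0 and 29 below, in a range from −0.40 to 0.38. Rpl35a, a further Diamond-Blackfan gene, was, of the 17 genes with several probes under the limit, the only one with 2 probes lying more than 1 standard error from 0. The first probe read 5.12, 5.40 and 4.67 in control and 4.75, 4.47 and 4.78 in LIPUS, a difference of −0.40 (adjusted p = 0.377). The second read 5.88, 5.95 and 5.49 against 5.48, 5.52 and 5.43, a difference of −0.30 (adjusted p = 0.383). On both probes control 3 read like the LIPUS arrays, and against control 3 alone the differences were −0.0019 and −0.016.

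Rpl10, which joins the large subunit late and near its catalytic centre, gave the same picture on the probe under the limit. It read 7.62, 7.57 and 7.17 in control and 7.16, 7.18 and 7.02 in LIPUS, a difference of −0.33 (adjusted p = 0.341) but of −0.051 against control 3. Its other probe, at the limit on control 1, read a difference of 0.17 at most. Rpl38, needed for translation of Hox mRNAs in the developing skeleton, read 7.06, 7.25 and 6.77 against 6.82, 6.73 and 6.82, a difference of −0.23 (adjusted p = 0.485). One of the Rpl18 probes differed by −0.23 as well, and the other by −0.020.

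Rpl4, which lines the peptide exit tunnel, was the large subunit gene with the most positive difference among probes under the limit with a mean above 2. It read 5.44, 5.66 and 5.78 in control and 5.95, 5.85 and 5.94 in LIPUS. The groups did not overlap, and the difference was 0.28 ± 0.15 (SE) with an adjusted p of 0.348. Here control 3 was the highest control, and the difference against it was 0.13. The higher value of 0.38 for the dim Rpl28 probe rests on control 3, which read −4.77, and has an interval from −1.51 to 2.28. Rpl3, a part of the peptidyl transferase centre, read 5.86, 5.96 and 5.88 against 5.99, 5.97 and 5.81, a difference of 0.026. Rpl5 and Rpl11 bind the 5S ribosomal RNA and, outside the ribosome, the p53 regulator Mdm2. The 3 Rpl5 probes differed by −0.13, −0.049 and 0.11, and the Rpl11 probe by 0.022. Rpl13a, the reference gene, read 8.19, 8.53 and 8.20 against 8.32, 8.28 and 8.46, a difference of 0.048 with a 95% interval from −0.35 to 0.44.

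The 3 genes whose symbols mark them as copies of another ribosomal protein gene had 4 probes. The Rpl36al1 probes differed by −0.23 and −0.015. The first of these read 7.18, 7.25 and 6.66 in control and 6.74, 6.84 and 6.82 in LIPUS, with control 3 the lowest of all 6 arrays. Rpl37al2 read 3.50, 3.11 and 3.17 against 3.13, 3.36 and 3.12, a difference of −0.057. Rpl37l1 was at the limit throughout. Rat ribosomal protein genes have many near-identical processed copies, and a probe can bind transcripts of more than the gene it is named for, which was not tested.

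Where a gene had several probes, they often differed in sign. Among the 17 genes with 2 or more probes under the limit (40 probes), 11 had probes with opposite signs: Rpl5, Rpl13, Rpl15, Rpl19, Rpl21, Rpl27, Rpl28, Rpl29, Rps2, Rps15a and Rpsa. The gap between the lowest and highest difference of a gene had a median of 0.21, as wide as most of the differences themselves. Rpl15 had the widest gap, 0.41. Its bright probe read 7.51, 7.62 and 7.47 in control and 7.64, 7.58 and 7.59 in LIPUS, a difference of 0.071. Its dim probe read 1.55, 1.44 and 1.20 against 1.06, 0.86 and 1.24, a difference of −0.34 (adjusted p = 0.331). Rpl21, with 5 probes, ran from −0.16 to 0.087. The probes of Rpl31 stayed together: −0.13 and −0.10 under the limit, and −0.021 for the probe at the limit on control 1.

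In the mean over these probes the controls differed from each other by more than the groups did. Averaged over the 72 probes, the control arrays stood at 6.57, 6.65 and 6.34, or 6.52 ± 0.16 (SD, n = 3), and the LIPUS arrays at 6.48, 6.49 and 6.48, or 6.48 ± 0.0057 (SD, n = 3). The 3 LIPUS means thus fell inside the span of the controls. Control 2 gave the highest of the 6 values for 43 of the 72 probes and control 3 the lowest for 41 and the highest for 0. Over all probes control 2 was highest for 22.5% and control 3 lowest for 21.2%.

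**Figure D3:**
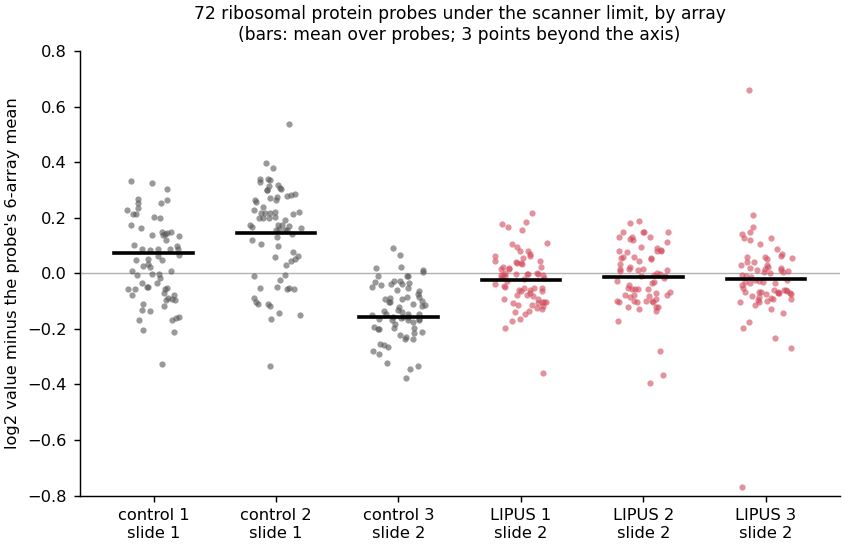
Deviation of each of the 72 probes from its mean over the 6 arrays (log2), by array, with the inferred slide under each name and bars at the mean over probes. Grey points are control and red points LIPUS arrays; 3 points lie beyond the axis. The control 3 bar sits at −0.16, those of control 1 and control 2 at 0.072 and 0.14, and those of LIPUS between −0.023 and −0.012.

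Slide 1 held only controls, so the full comparison mixes slide with treatment. Within slide 2, LIPUS can be set only against control 3. The median difference over the 72 probes was then 0.13, beside 0.020 over all probes, and 64 of the 72 (88.9%) lay above 0, beside 51.6% of all probes. The sign differed from that of the full comparison for 36 of the 72. Control 1 and control 2 minus control 3, a comparison of controls alone, gave a median of 0.23 over the 72 probes and 0.073 over all probes, with 62 of 72 above 0. The direction of the family thus turns on which control stands for the group, and with 1 control on slide 2 a low reading of control 3 and a difference from LIPUS cannot be told apart. With slide as a term in the fit, or on slide 2 alone, no member was called by limma (1 at an unadjusted p under 0.05 in each), and neither was any other probe (3543 and 3006 of 23260 at an unadjusted p under 0.05).

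The course of the difference with brightness was set out over all probes. Between 7 and 8 on the log2 scale, 151 probes of any gene, ribosomal protein probes included, had a median difference of −0.028 (5th to 95th percentiles −0.57 to 0.35), and between 8 and 9, where the limit lies, 105 probes had one of 0.17 (−0.18 to 0.48). The 24 ribosomal protein probes at the limit had a median of 0.21.

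**Figure D4:**
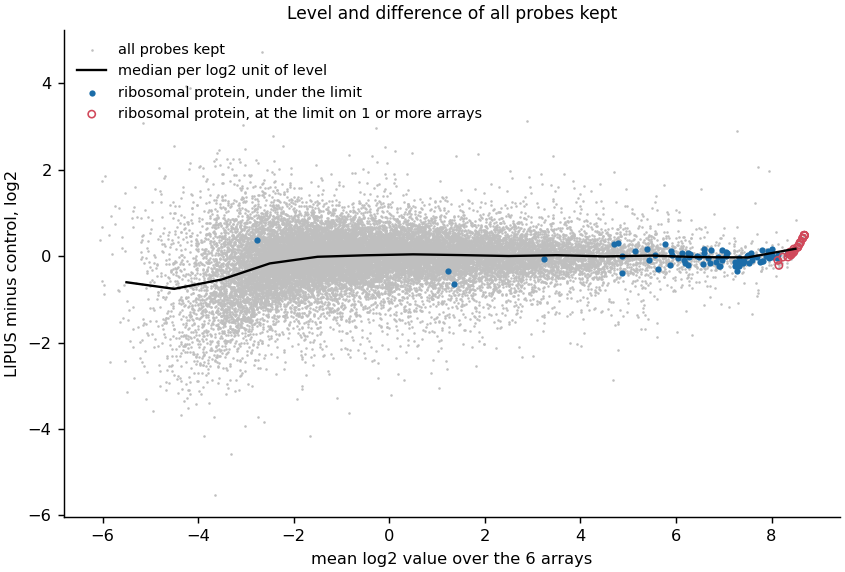
LIPUS minus control difference (log2) against the mean log2 value over the 6 arrays for all 23260 probes kept, with the median per log2 unit as a line (units with at least 20 probes). Filled points are ribosomal protein probes under the limit and open circles those at it on 1 or more arrays. The filled points lie along 0, and the open circles turn upward at the right edge, up to 0.48.

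Modelling the variance by brightness added calls. With an intensity trend in limma's variance model, which tightens the errors of bright probes, 2535 of all probes were called (10.9%) and 8 ribosomal protein probes were called higher. These are the 8 probes at the limit on 4 or more arrays (Rpl41, Rplp1, Rpl8, Rps23, Rps6, Rpl37l1 and a probe each of Rps12 and Rps2). Of the 72 under the limit, 0 were called, 6 passed an unadjusted p under 0.05, and the lowest adjusted p was 0.121. The interval then lay within 1.5-fold for 67 of the 72.

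The spot tables gave a second reading of the dimmer members. More than 50% of the pixels were saturated for 63 of the 96 probes on all 6 arrays, and on no array for 20 probes of 17 genes. For these 20, the median difference was 0.0005 in the spot tables and 0.023 in the value table, the sign was the same for 17, and the spot table values ran from −0.36 to 0.37. None of the 20 was called in the fit on the spot tables (lowest adjusted p = 0.295).

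Other genes of protein synthesis were described in the same way, each list by its probes under the limit. Calls given for these lists are those of the reported fit. With an intensity trend in limma, Eif3b (adjusted p = 0.0071), Bysl (0.031) and Rps6ka1 (0.012) were called too. So were the Gspt1 probes (0.0096 and 0.034) and the brighter Eef2k probe (0.021). Of the initiation factors, 35 probes of 22 genes had a median of 0.082, and 0 were called by limma (2 at an unadjusted p under 0.05). Eif3b, a scaffold subunit of the factor that loads the small subunit onto mRNA, came nearest, with 2.59, 2.60 and 2.77 in control and 3.24, 3.35 and 3.18 in LIPUS (difference 0.61, adjusted p = 0.079). Eif4b, a helper of the cap-bound helicase, had 4 probes. A dim one differed by −0.75 (adjusted p = 0.223), and the others by 0.082, 0.018 and −0.029. Of the elongation and release factors, 1 of 10 probes was called lower and 0 were called higher. The median was 0.066, with 6 above 0 and 4 below. The probe called lower belongs to Eef2k, the kinase that slows elongation by phosphorylating Eef2. It read 1.25, 1.29 and 1.53 in control and 0.39, 0.16 and 0.41 in LIPUS, a difference of −1.04 ± 0.16 (SE, adjusted p = 0.031). The other Eef2k probe read 4.27, 4.35 and 4.51 against 3.94, 3.76 and 3.97, a difference of −0.49 that did not pass (adjusted p = 0.141).

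Other mRNAs known for a TOP tract had a median of −0.0085 over 32 probes, and 0 were called by limma (1 at an unadjusted p under 0.05). Among them Eef2, the translocation factor, read 6.47, 6.58 and 7.13 in control and 7.17, 7.15 and 7.16 in LIPUS, so control 3 stood with the LIPUS arrays (difference 0.43, adjusted p = 0.300). Npm1, a nucleolar chaperone of ribosome assembly, differed by −0.37, −0.34 and −0.25 on its probes (adjusted p = 0.253, 0.309 and 0.353). Ribosome biogenesis factors had a median of 0.075 over 44 probes, with 0 called by limma (1 at an unadjusted p under 0.05). Bysl, which helps assemble the small subunit, differed by 0.58 (adjusted p = 0.154), Nop56, a core protein of the methylation-guide particles, by 0.36 (0.250) on one probe and 0.13 (0.699) on the other, and Fbl, their methyltransferase, by −0.36 (0.282). Members of the mTORC1 and S6 kinase axis had a median of −0.12 over 20 probes, with 8 above 0 and 12 below. Of these, the same Eef2k probe was called lower and 0 were called higher. Mtor itself read −1.89, −1.65 and −1.40 in control and −1.43, −1.27 and −1.20 in LIPUS (difference 0.35, adjusted p = 0.332). The dim Mlst8 probe went the other way, by −0.92 (adjusted p = 0.253, limma), and its groups overlapped. Rps6ka1, a kinase that can phosphorylate Rps6, differed by −0.69 (adjusted p = 0.120).

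**Figure D5:**
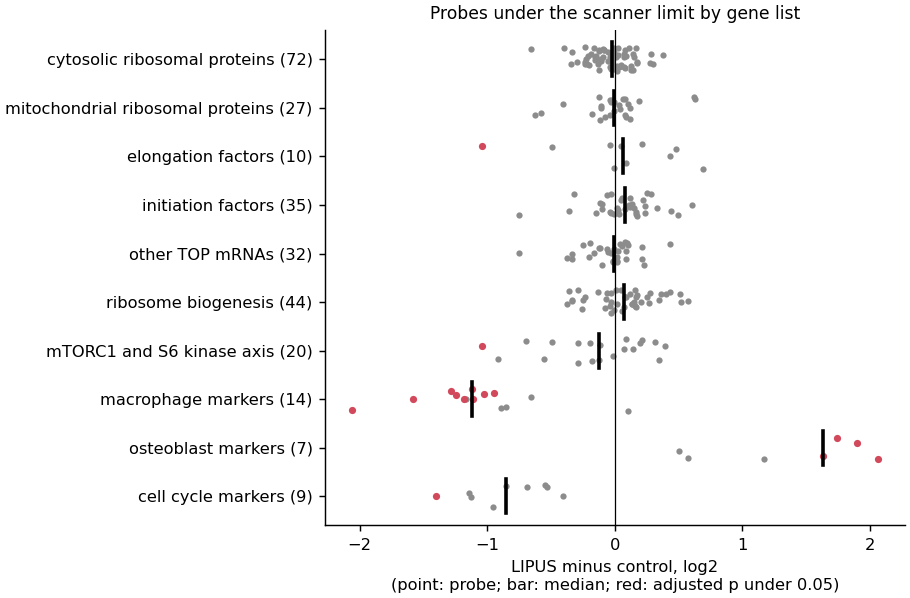
LIPUS minus control difference (log2) of each probe under the scanner limit, by gene list, with the number of probes in brackets, bars at the median and red points at an adjusted p under 0.05. Cytosolic ribosomal proteins spread around −0.025 with no red point, while macrophage markers centre on −1.12 and osteoblast markers on 1.63.

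Some macrophage and osteoblast markers differed by more than any ribosomal protein probe. Aif1, a macrophage cytoskeletal protein, fell by 1.58 and Fcgr3a, an Fc receptor, by 2.06 on the log2 scale. Spp1, the bone matrix protein osteopontin, rose by 2.07 and Panx3, an osteoblast channel, by 1.90. Others of these lists differed by less, such as the osteoblast markers Ibsp (0.57) and Alpl (0.51). Lyz2, at 0.11, was the 1 macrophage probe under the limit that lay above 0, against 13 below. Of the cell cycle markers, all 9 probes lay below 0, with a median of −0.85, and 7 passed an unadjusted p under 0.05 (limma). Only the Birc5 probe was called lower in the reported fit. With an intensity trend in limma, Cdk1 (adjusted p = 0.00075), Ccnb2 (0.0022) and a Ccnb1 probe (0.0019) were called lower too. So were the Plk1 probes (0.0021 and 0.0195), while Foxm1, Aurkb and the other Ccnb1 probe were not. The 4 endothelial probes all lay below 0, each at an unadjusted p under 0.05 (limma), and 1 was called lower. With the intensity trend in limma, Kdr (adjusted p = 0.013) and Icam2 (0.013) were called lower too. Of the 6 adipocyte probes, 4 lay above 0 and 1 was called higher.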

How the data were processed

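Two-group array data were used: 3 control and 3 LIPUS arrays. The value table deposited by the authors holds log2 values with each array's 75th percentile at 0, a scale found from the values; undoing it gave whole numbers for 98.7% to 99.0% of probes (tolerance 0.01). How the authors made it is unknown. Column medians were −2.37, −2.49, −2.53, −2.49, −2.62 and −2.85. Each column's deviations correlated best with those of its own array's spots, in the same direction. The deposited spot tables hold, per the file headers, spot and background intensity without normalization and saturated pixels in percent; spot positions gave the grid tilt from which slides were inferred. The value table was the main source because most ribosomal protein spots saturate in the spot tables.

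Probes were kept when spot minus background exceeded the 95th percentile of 153 negative control spots on at least 3 arrays (23260 of 41012). Groups were compared with limma 3.58.1 (lmFit, eBayes; R 4.3.3), two-sided, with Benjamini-Hochberg adjustment over all kept probes, after a test on simulated data. Accessions were matched to RefSeq symbols, which named 10768 probes (7110 of them kept). The number of arrays limits the precision. Alternatives covered filter, scaling, source of values, slide, replicate block, variance trend and leaving out arrays; slide 2 alone was added after seeing the data. Spot tables were corrected with normexp (offset 50).

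Members and gene lists were chosen with earlier results of these data known. Named members are those called, up to 8 with the largest difference each way, the 5 brightest and 5 dimmest, the stalk genes, Rpsa, Rps6, paralogs, genes with probes of opposite sign, and up to 4 of each other list by unadjusted p, with provisional symbols left out. Other members were named after their values were seen. The values of some members are not reported here, though the counts include them.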

Additional observations from a re-analysis of the deposited data

How the results depend on the processing

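Over 51 named ribosomal protein probes, no alternative ended a call, since none was called. No member was called under any alternative except the variance trend, which called 8, all at the scanner limit. Calls over all probes, 854 in the reported fit, came to 0 with no filter on dim probes (5337 at an unadjusted p under 0.05), 522 after median centring, 1815 after spike-in scaling (6 spike-in probes), 1515 in the spot tables, 521 with slide as a random block and 2535 with the variance trend. With slide as a fixed block and on slide 2 alone they came to 0. With the replicate number as a block they also came to 0 (4369 unadjusted), with 0 members called and a member median of −0.025; same-numbered arrays correlated at 0.032, 0.0053 and 0.0057, so the numbers were not taken to pair the samples. Leaving out 1 array gave 0 to 642 calls: 0 without control 1 or control 2 (3509 and 3818 unadjusted), 642 without control 3, and 244, 131 and 233 without LIPUS 1, 2 and 3. The member median of −0.025 became 0.16 after median centring and −0.42 after spike-in scaling, shifts shared by all probes (0.16 and −0.42), 0.24 in the spot tables, where 52 of the 72 probes had over 50% of pixels saturated on at least 1 array (0.037 over all probes), and 0.13 with slide as a fixed block or on slide 2 alone. Without 1 array it ran from −0.12 (without control 3) to 0.040 (without control 2). Of the 72 probes, 28 lay above 0 in the reported fit, 59 after median centring and 59 in the spot tables, 64 with slide as a fixed block or on slide 2 alone, and 0 after spike-in scaling, where the lowest adjusted p was 0.0815. The scanner limit bounds what brightness can show for 24 of the 96 probes.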

Other observations

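Mitochondrial ribosomal proteins, which build the separate ribosome of the mitochondrion, were measured by 27 probes of 24 genes. None was called in the reported fit, where 2 passed an unadjusted p under 0.05, and the median difference was −0.0081. With an intensity trend in limma, Mrpl13 (adjusted p = 0.013) and Mrps33 (0.040) were called lower. Mrpl13 read 5.08, 5.18 and 4.70 in control and 4.46, 4.35 and 4.41 in LIPUS, a difference of −0.58 (adjusted p = 0.138, limma). Mrps33 read 4.23, 4.35 and 3.51 against 3.32, 3.33 and 3.57, a difference of −0.63 (adjusted p = 0.233). In both genes control 3 lay nearest to the LIPUS arrays, as in the cytosolic genes Rpl10 and Rpl35a, and the median of the list against control 3 alone was 0.11. The release factor Gspt1 differed by 0.70 and 0.48 on its probes (adjusted p = 0.128 and 0.130). On the second Gspt1 probe the values were 2.12, 2.17 and 2.25 in control and 2.75, 2.69 and 2.54 in LIPUS. The groups did not overlap on either Gspt1 probe, which held for 28.6% of all probes.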
